A study of Homo sapiens with 36 samples.

Results

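LNCaP cells that had been given enzalutamide and olaparib together for 8 h were set against LNCaP cells given the vehicle DMSO for 8 h. The members are the 3 combination samples and the 3 DMSO samples of that hour by their titles, which is 6 of the 36 libraries of the series. LNCaP is a line derived from a human prostate cancer that expresses the androgen receptor and depends on it. All samples were LNCaP cells grown in RPMI medium with 10% fetal bovine serum, and no androgen is listed as added. The source of any androgen signalling was not measured. The combination was 3 µM enzalutamide plus 3 µM olaparib, and 3 samples each of 3 µM enzalutamide alone and 3 µM olaparib alone at 8 h, and of the combination and DMSO at 24 h, serve below as references. One cell line was used, and nothing in the labels says whether the 3 samples of a group came from separately treated dishes. The p-values thus measure the spread between samples of a group, whatever their origin, as estimated over all 36 libraries of the series.

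Enzalutamide binds the androgen receptor in place of androgen and blocks its entry into the nucleus and its work on DNA. In prostate cells the receptor drives genes such as KLK3, which encodes prostate-specific antigen. Olaparib inhibits the PARP enzymes, which sense DNA breaks, and traps them on DNA. Unrepaired damage stabilises p53, which switches on genes such as CDKN1A, the inhibitor of cyclin-dependent kinases, and MDM2, the ubiquitin ligase that in turn degrades p53. CDKN1A lets the repressor complex DREAM form, which binds the CHR element in promoters of genes used in mitosis. All of this is background from other work.

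The values are CPM, the counts of a gene scaled to a common library total, after TMM scaling, and log2 fold changes carry their standard error. A gene is called changed where its Benjamini-Hochberg adjusted p from edgeR's quasi-likelihood test is below 0.05 over all 15744 genes tested. The DMSO libraries held 6171929 to 11850708 counts and the combination libraries 5392356 to 10912041, the lowest of each group being the library run on lane 6. Replicates correlated at 0.985 to 0.993 across genes on the log2 scale, and the principal components of the 8 h libraries set apart 3 libraries of lane 6, olaparib replicate 1 on the first, combination replicate 3 on the second and DMSO replicate 3 on the third. The second component also split the libraries by drug, positive in every one given enzalutamide and negative in every other. On the third, libraries without olaparib were negative and those with it positive, except combination replicate 3 (-1.06). Mitochondrially encoded genes took 4.77 to 5.51% of the counts. The cells carried the markers of the line: the 7 luminal markers reported (KLK3, HOXB13, FOXA1, FOLH1, KRT8, KRT18 and CDH1) summed to between 4419 and 4668 CPM with DMSO and to between 4221 and 4365 CPM with both drugs. The basal markers KRT5 and TP63, the stromal marker COL1A2, the endothelial and blood markers CDH5, PTPRC, CD3E and HBB and the neuroendocrine marker INSM1 had no count in any of the 6 libraries. The basal markers summed to between 1.41 and 1.87 CPM with DMSO and to between 0.543 and 0.812 CPM with both drugs, with KRT14 called lower (a call lost under 5 of 14 alternatives), and the endothelial and blood markers to between 6.95 and 9.44 and between 5.27 and 5.91 CPM, with VWF called lower (lost under 9 of 15). Neuroendocrine markers summed to between 2.04 and 2.46 and between 1.27 and 1.85 CPM, stromal markers to between 28.1 and 34.9 and between 29.5 and 36.5 CPM, and no member was called. The part of any of these in the results below was not tested. A fall of a transcript in these bulk samples could come from fewer cells of a type or cell cycle phase or from less RNA per cell, and the counts cannot tell these apart.

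After 8 h, 942 genes had changed with both drugs, which is 5.98% of those tested: 335 rose (2.13%) and 607 fell (3.86%). The change was of moderate size for most of them, with a median absolute log2 fold change of 0.40 among the called genes. Of the called genes 102 differed by 2-fold or more, 46 higher and 56 lower. In 918 of the 942 the 3 combination values lay wholly outside the range of the 3 DMSO values. Of all genes tested 22.1% were in this state (9.34% higher), and 5.83% were in it with a call. The sign was the same in each of the 3 sequencing lanes for 930 of the called genes. Groups that do not overlap must show this, and the same 6 libraries gave the calls, so it is no separate support for them. The call rate rose with the level of the gene, from 1.42% of genes under 1 CPM to 10.6% of genes above 100 CPM, whose errors are smaller. The split between rises and falls depended on the scaling. Library totals without TMM gave 466 rises and 416 falls, and TMM without a filter on low counts gave 476 rises and 436 falls. Left out in turn, 1 library moved the count by more than 1.5 times: without DMSO replicate 2 it was 595. Without combination replicate 3 it was 724 and without DMSO replicate 3 it was 912. The fit to lanes 5 and 7 alone, which drops the shallow libraries, called 1104 genes, 725 of them among the 942.

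**Figure D1:**
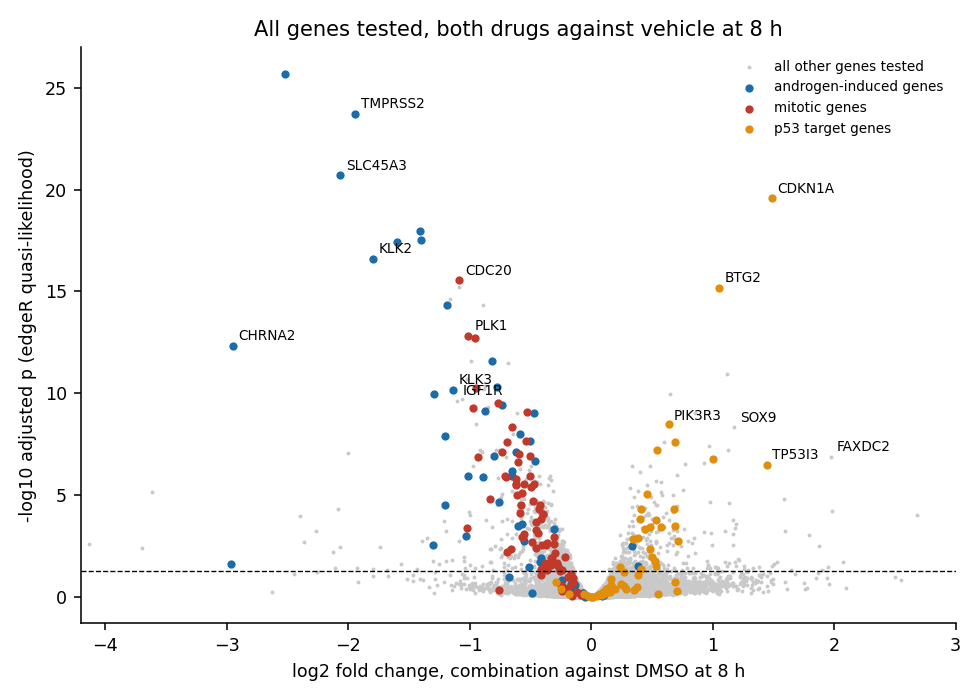
Log2 fold change of the combination against DMSO at 8 h (x axis) and -log10 of the adjusted p (y axis) for the genes tested, with androgen-induced genes in blue, mitotic genes in red, p53 target genes in orange and the threshold of 0.05 as a dashed line. Androgen-induced and mitotic genes lie mostly to the left and p53 targets mostly to the right, and 3 genes past the threshold lie outside the plotted range.

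Many genes that androgen induces fell. Of 56 such genes tested, 39 fell and 2 rose, with a median log2 fold change of -0.61 against 0.00 over all genes tested. The shares over all genes tested, 2.13% higher and 3.86% lower, are the reference for this and every list count below against DMSO at 8 h. SLC45A3, a solute carrier gene of prostate cells, stood at 256, 269 and 225 CPM in the DMSO samples and at 62.9, 62.4 and 52.8 CPM with both drugs. The 2 groups were far apart, and the log2 fold change was -2.07 ± 0.08 (adjusted p 2.0e-21). TMPRSS2, a membrane serine protease, stood at 704, 641 and 664 CPM with DMSO and at 179, 176 and 165 CPM with the combination, a log2 fold change of -1.95 ± 0.06 (adjusted p 1.9e-24). The KLK3 gene lies at chr19:50854915-50860764, TMPRSS2 at chr21:41464305-41531116, CDKN1A at chr6:36676460-36687339 and CDC20 at chr1:43358981-43363203, on GRCh38. KLK3 fell less at this hour, from 664, 587 and 663 CPM to 297, 302 and 267 CPM, and its groups did not overlap either (-1.14 ± 0.10, adjusted p 7.0e-11). KLK2, the neighbouring kallikrein gene, fell by 1.80 on the log2 scale. PMEPA1, an inhibitor of TGF-beta signalling whose exons overlap those of the antisense RNA NKILA, fell by 1.60, and ZBTB16, a zinc finger factor, by 1.41. FKBP5, the co-chaperone of steroid receptors, fell by 0.77. CHRNA2, a nicotinic receptor subunit gene, went from 18.4, 15.5 and 10.1 CPM to 1.62, 1.81 and 2.77 CPM. ADAM7, a gene of a disintegrin family protein, was close to the limit of detection, at 0.879, 0.680 and 0.331 CPM with DMSO and at 0, 0.181 and 0 CPM with both drugs, and 4 of 13 alternatives lost its call. The 2 members that rose were TSC22D3, the glucocorticoid-induced leucine zipper gene (0.34 ± 0.08), and ACP3, which encodes prostatic acid phosphatase (0.39) and was picked out after its value was seen. Just 1 of these rises was called in lanes 5 and 7 alone and when any 1 library other than combination replicate 3 was left out. Between 35 and 37 members fell when 1 library was left out, and 39 fell in lanes 5 and 7 alone.

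Of 19 genes that androgen represses, 5 rose, 2 fell and 12 were not called, with a median of 0.21. The rises numbered 3 in lanes 5 and 7 alone and without combination replicate 2, DMSO replicate 1 or DMSO replicate 2. PIK3R3, a regulatory subunit of PI3-kinase, rose from 110, 108 and 105 CPM to 165, 162 and 173 CPM (0.63 ± 0.06, adjusted p 3.9e-09). SESN3, a sestrin gene that restrains mTORC1, rose by 0.54 ± 0.10. OPRK1, the kappa opioid receptor gene, rose from between 1.10 and 2.48 CPM to between 3.35 and 4.43 CPM. TRIM36, a ubiquitin ligase gene, and LRIG1, a brake on growth factor receptors, went the other way (-0.50 ± 0.13 and -0.26 ± 0.06), and both calls were lost without DMSO replicate 1, that of TRIM36 also without combination replicate 3. Among 19 steroid receptors and coregulators tested, 4 rose, PGR, NCOA3, NCOA2 and GATA2, and NSD2 fell. NCOA2 and NCOA3 encode p160 coactivators, and the NCOA2 groups overlapped. The list had 1 rise in lanes 5 and 7 alone and without combination replicate 2 or 3 or DMSO replicate 1 or 3, and no fall with library totals or without combination replicate 1 or DMSO replicate 1. None of 15 steroid metabolism genes was called. Of 22 luminal identity genes 4 fell, among them TMPRSS2, KLK3 and SPDEF, an epithelial ETS factor, and ELF3, another ETS factor, rose (0.59 ± 0.09).

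Of 62 p53 targets tested, 25 rose, none fell and 37 were not called, with a median log2 fold change of 0.28, and 56 of the 62 had a positive sign. CDKN1A stood at 411, 421 and 431 CPM with DMSO and at 1164, 1215 and 1157 CPM with both drugs. Its groups were widely separated, with a log2 fold change of 1.49 ± 0.06 (adjusted p 2.7e-20). BTG2, an antiproliferative gene, stood at 71.1, 69.7 and 75.5 CPM with DMSO and at 148, 149 and 149 CPM with the combination (1.05 ± 0.06, adjusted p 6.6e-16). TP53I3, a quinone oxidoreductase gene whose exons overlap FAM228B, rose from 3.69, 4.17 and 5.30 CPM to 11.9, 12.3 and 9.96 CPM (1.44 ± 0.18). BBC3, which encodes the apoptosis activator PUMA, rose from 12.7, 12.8 and 11.3 CPM to 28.6, 25.2 and 18.8 CPM (1.00 ± 0.12). The sestrin gene SESN1 rose by 0.69 ± 0.08 and INKA2, an inhibitor of the kinase PAK4, by 0.71 ± 0.15. MDM2 rose from between 114 and 122.9 CPM to between 165 and 184 CPM (0.55 ± 0.06, adjusted p 6.0e-08). Of the 13 p53 pathway regulators tested none was called. Between 21 and 23 of the targets rose when 1 library was left out, and 23 in lanes 5 and 7 alone. Among 25 BCL2 family and death receptor genes tested 3 rose, BBC3, BMF (0.59 ± 0.10) and the death receptor gene FAS (0.50 ± 0.13, exons overlapping ACTA2). FAS lost its call without combination replicate 3 or DMSO replicate 2 (highest adjusted p 0.092).

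**Figure D2:**
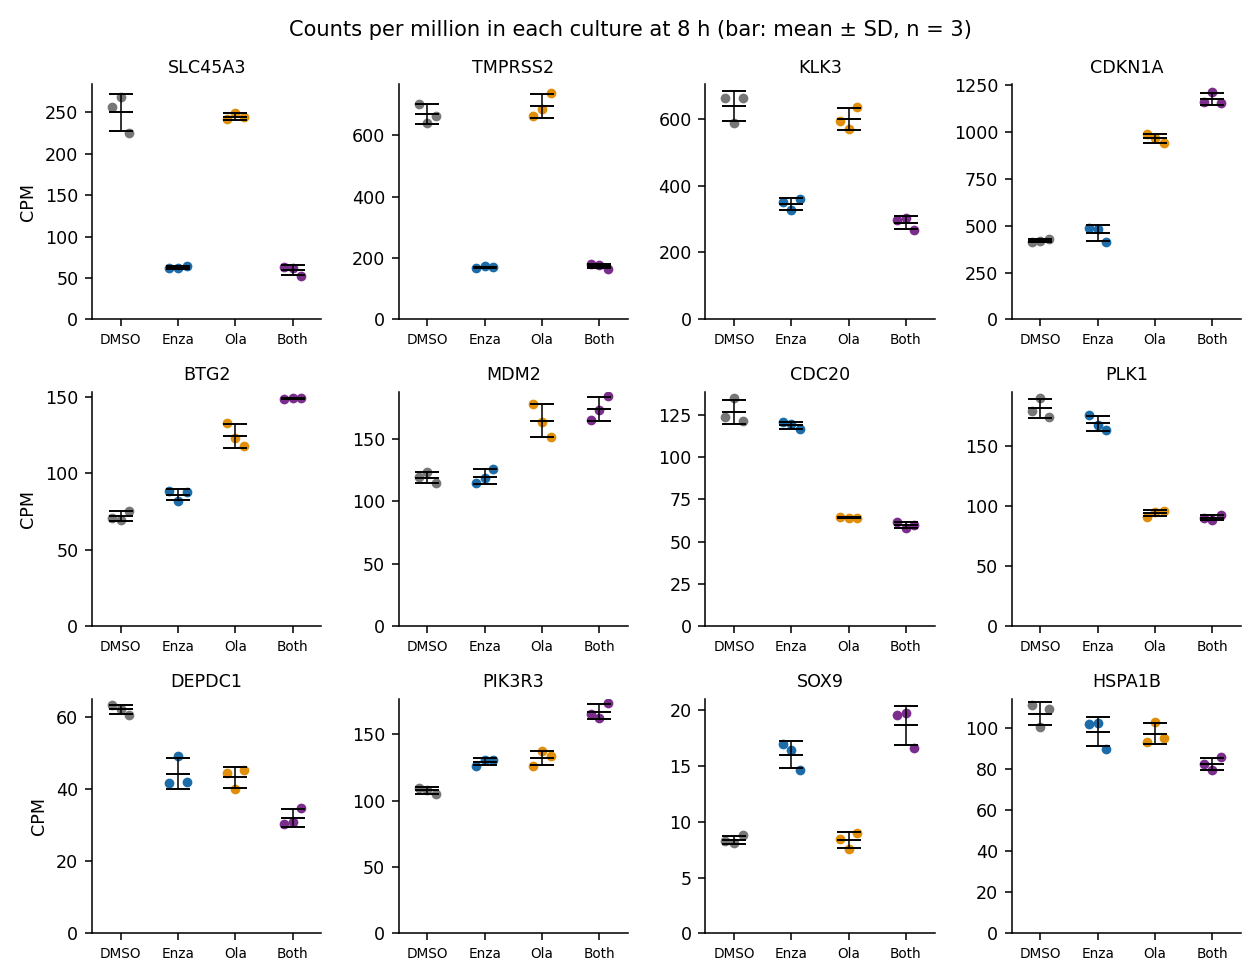
CPM in each sample at 8 h for 12 genes, with DMSO in grey, enzalutamide in blue, olaparib in orange and both drugs in purple (points: the 3 samples of a group; bars: mean and SD; each y axis starts at 0). SLC45A3 and TMPRSS2 are low in both groups that received enzalutamide, CDC20 and PLK1 are low in both groups that received olaparib, and PIK3R3 is highest with both drugs.

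Most genes used in mitosis fell. All 79 tested had a negative sign and 63 of them fell, with a median log2 fold change of -0.45. CDC20, the activator of the anaphase-promoting complex, went from 124, 135 and 122 CPM to 61.7, 58.1 and 59.8 CPM (-1.08 ± 0.06, adjusted p 2.9e-16). PLK1, the polo-like kinase of mitotic entry, went from 179, 190 and 174 CPM to 89.8, 88.4 and 92.6 CPM (-1.01 ± 0.07, adjusted p 1.5e-13). Both genes were at about the same level in the 3 samples of each group, and the groups lay apart. PIF1, a DNA helicase gene, fell by 1.02, DEPDC1 by 0.97, the kinesin gene KIF20A, whose exons overlap BRD8 and CDC23, by 0.96 and the microtubule gene PSRC1 by 0.94. MKI67, the source of the Ki-67 antigen, was a weaker case: it ranged from 194 to 274 CPM with DMSO and from 159 to 211 CPM with both drugs, the groups overlapped, and within lane 6 the difference had the other sign (log2 ratio 0.12, against -0.37 ± 0.11 in the fit over all lanes). The number of mitotic genes that fell was 49 to 60 when 1 library was left out and 63 in lanes 5 and 7 alone.

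The promoters of these genes often hold a short sequence that the counts did not use. The windows are those of RefSeq on GRCh38.p14, from 250 bases before to 50 bases after the annotated start, and 67 of the 79 mitotic genes tested had an entry. The core of the CHR element, TTTGAA, stood on either strand in 46 of the 67 (68.7%), compared with 9.33% of the 10735 tested genes with a promoter entry and 15.4% of all 27305 promoters in the table. CCAAT boxes, searched as CCAAT on either strand, stood in 71.6% of the mitotic promoters and in 37.0% of the tested ones. The next 4 lines show the 120 bases before the start, on the gene's own strand, of 4 mitotic genes. They were picked by the largest falls among genes that hold TTTGAA in that stretch and have at most 30 of its bases in an annotated exon. A further condition on the chromosome was applied, so a gene with a larger fall may be missing. Capitals mark TTTGAA or its reverse complement and CCAAT or its reverse complement.
CDC20 (chr1:43358861-43358980, plus strand): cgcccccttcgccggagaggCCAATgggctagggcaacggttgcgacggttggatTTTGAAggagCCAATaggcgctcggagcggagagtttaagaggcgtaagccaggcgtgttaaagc
PIF1 (chr15:64825648-64825767, minus strand): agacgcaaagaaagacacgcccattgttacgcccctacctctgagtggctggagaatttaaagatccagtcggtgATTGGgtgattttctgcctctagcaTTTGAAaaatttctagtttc
ASPM (chr1:197146670-197146789, minus strand): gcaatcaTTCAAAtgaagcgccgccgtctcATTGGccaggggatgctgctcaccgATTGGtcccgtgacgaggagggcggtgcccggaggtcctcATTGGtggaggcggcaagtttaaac
ESPL1 (chr12:53268179-53268298, plus strand): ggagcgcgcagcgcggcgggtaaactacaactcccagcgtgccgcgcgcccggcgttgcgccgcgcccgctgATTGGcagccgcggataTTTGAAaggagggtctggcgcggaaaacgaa

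The TTTGAA of these promoters begins 65 bases before the start in CDC20, 20 in PIF1 and 31 in ESPL1, and its reverse complement begins 113 bases before the start in ASPM. ASPM, a spindle pole gene, fell from 25.8, 29.6 and 23.2 CPM to 17.2, 18.6 and 18.1 CPM (-0.56 ± 0.11, adjusted p 0.0011). ESPL1, which encodes separase, the protease that frees sister chromatids, fell from 41.7, 47.6 and 38.6 CPM to 30.0, 32.7 and 31.6 CPM (-0.45 ± 0.09, adjusted p 4.8e-04). Within the list the motif did not mark the genes that fell: 35 of 46 mitotic genes with TTTGAA fell (median -0.41) and 18 of 21 without it did (median -0.48). Over all tested genes with a promoter entry, 9.38% of those with TTTGAA fell and 3.94% of those without it, a set that includes the mitotic genes. A match is a run of letters and no measurement of binding.

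DNA replication genes had smaller differences. Of 60 tested, 12 fell and none rose, with a median of -0.13, and 7 fell without DMSO replicate 2 or with library totals. ATAD2, a chromatin ATPase gene, fell by 0.35, FEN1, the flap endonuclease, by 0.32 (exons overlapping FADS2), GINS1, a part of the replicative helicase, by 0.31, and RRM2, the ribonucleotide reductase subunit, by 0.29. FEN1 and GINS1 lost their calls without DMSO replicate 2 (adjusted p 0.060 and 0.066). In the promoters of 47 of these genes TTTGAA stood once (2.13%), while the E2F core GCGGGAA stood in 40.4%, against 10.5% of the tested promoters. Of 14 replication-dependent histone genes, which such libraries catch in part because most of these transcripts lack a poly(A) tail, none was called.

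Few repair genes were called, no larger a share than among all genes tested. PARP1, the main target of olaparib, ranged from 667 to 676 CPM with DMSO and from 602 to 623 CPM with both drugs (-0.13 ± 0.06, adjusted p 0.25), and PARP2 was not called either (-0.10 ± 0.06, adjusted p 0.42). Of 31 genes of the PARP family, base excision repair and end joining none passed the test, and 2 of 41 homologous recombination and Fanconi genes did (4.88%, against 5.98% of all genes tested). Those 2 were RAD51D (-0.37 ± 0.11, adjusted p 0.038) and FANCG (-0.22 ± 0.07, adjusted p 0.039). Both calls were lost under at least 9 of 15 alternatives. Among 20 CDK inhibitors and G1 regulators, CDKN1A rose, and CDKN2C, the inhibitor p18, fell from between 35.3 and 39.9 CPM to between 24.2 and 27.9 CPM. CDK6 and CCND3 were also called lower, with adjusted p 0.039 and 0.026, and both lost their calls with library totals, in lanes 5 and 7 alone and without combination replicate 1 or DMSO replicate 3. SUV39H2, a histone methyltransferase, was the 1 of 18 chromatin silencing genes to fall (-0.44 ± 0.11), a call lost without combination replicate 1 or 2, and none of 4 APOBEC3 genes was called.

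Promoters of androgen-induced genes held the receptor's recognition hexamer about as often as other promoters. The hexamer AGAACA stood on either strand in 3 of the 42 with an entry (7.14%) and in 8.63% of the tested promoters. The full palindromic androgen response element, which contains the hexamer, stood in none of the 10735 tested promoters, so its absence here says nothing about these genes. KLK3 is one of the 3, and the stretch from 190 to 71 bases before its start is shown here with the hexamer in capitals.
KLK3 (chr19:50854725-50854844, plus strand): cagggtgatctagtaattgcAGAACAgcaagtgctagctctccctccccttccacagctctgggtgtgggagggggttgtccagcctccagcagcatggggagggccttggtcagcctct
The hexamer begins 170 bases before the start. Many sites that the androgen receptor binds lie in enhancers far from the start, which these windows do not cover. The p53 decamer, searched by its consensus on both strands, stood in 6 of 49 p53 target promoters (12.2%), in 1 of the 20 with an entry that rose (5.00%) and in 5.01% of the tested ones.

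Several metabolic lists held androgen-responsive members that fell. Of 26 cholesterol synthesis genes 4 fell, among them IDI1, the isomerase of isopentenyl diphosphate, by 0.31. IDI1 lost its call with library totals and under 5 of the 6 single left-out libraries. Among 23 genes of fatty acid synthesis, 3 were lower and 2 higher. The elongases ELOVL7 and ELOVL5 and the acyl-CoA ligase ACSL3 fell by 0.87, 0.39 and 0.47, while the lipogenic regulator THRSP and the ligase ACSL1 rose (0.68 ± 0.14 and 0.20 ± 0.05). The list had 1 rise without combination replicate 1 or 2 or DMSO replicate 2. ELOVL7 and ACSL3 are also on the list of androgen-induced genes. The sterol exporter ABCA1, a target of the receptor LXR, rose from 1.58, 1.02 and 1.49 CPM to 2.94, 4.89 and 4.43 CPM (1.59 ± 0.24, adjusted p 1.5e-05), and ABCG1 rose by 0.55 ± 0.11. These were 2 of 11 LXR targets tested. Of 22 glycosylation and secretory genes 6 fell, led by ST6GALNAC1, a sialyltransferase (-1.02 ± 0.13), UAP1 (-0.58 ± 0.06) and GCNT1 (-0.57 ± 0.10). The polyamine genes AMD1 and ODC1 fell by 0.48 and 0.22, 2 of the 4 called lower among 15. The list had 2 falls with library totals, in lanes 5 and 7 alone and without combination replicate 3 or DMSO replicate 3.

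Growth signalling genes split. IGF1R, the receptor of insulin-like growth factor 1, fell from 43.4, 47.0 and 32.8 CPM to 18.5, 20.6 and 18.8 CPM (-1.11 ± 0.10, adjusted p 2.2e-10), with no overlap between the groups. IRS1, the adaptor of that receptor, fell by 0.63, a call lost without combination replicate 2 or DMSO replicate 1. FOXO3, a transcription factor held back by AKT, rose by 0.40 ± 0.05 and TSC22D3 by 0.34 ± 0.08. In all, 3 of 26 such genes rose and 3 fell, and 1 fell without DMSO replicate 1. In the list of 40 genes for MYC and for building ribosomes, 13 were lower and 0 higher (median -0.16). NOP56, a snoRNP protein, was lower by 0.33 ± 0.05. MYC was lower by 0.19 ± 0.05, a call that 7 of 15 alternatives lost. The count of 13 fell by over 1.5 times with any of the 6 libraries left out, to between 4 (without DMSO replicate 2) and 8. It was 6 with library totals. Of 31 immediate early genes 2 rose, JUND and FOSL2, and 3 fell, MYC, BTG1 and DUSP4, and JUND had a log2 ratio of -0.05 within lane 6. Just 1 rise was called without combination replicate 3 or DMSO replicate 2 or 3 and 0 when any other of the 6 was left out, and FOSL2 lost its call under 9 of 15 alternatives. JUND also differs between hours without drug, with a DMSO level of 149 ± 28.1 CPM at 8 h and 265 ± 15.85 CPM at 24 h (SD, n = 3). None of 44 cytosolic ribosomal protein genes, of 13 mitochondrially encoded genes and of 34 hypoxia and glycolysis genes was called.

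Heat shock genes were mixed, with 6 of 14 lower and 1 higher. HSPA1B, an inducible HSP70 with a near-identical copy that reads may be shared with, went from 111, 101 and 110 CPM to 82.5, 79.5 and 85.8 CPM (-0.38 ± 0.06), and DNAJB1 fell by 0.31, while HSPA4L rose (0.70 ± 0.08). The count of lower members was 3 with library totals and without combination replicate 3 or DMSO replicate 2, and 2 without combination replicate 2 or DMSO replicate 1. Of 36 amino acid response genes 4 rose and 1 fell, including CEBPB (0.67 ± 0.13) and DDIT4, an inhibitor of mTORC1 (0.44 ± 0.09). The DMSO level of CEBPB was 22.5 ± 4.61 CPM at 8 h and 39.6 ± 4.52 CPM at 24 h (SD, n = 3). CEBPB thus also differs between hours without drug. Of 24 endoplasmic reticulum stress genes 3 fell, among them the chaperone HSPA5 (-0.27 ± 0.07), whose call held in all 15 alternatives. The other two, PDIA4 and CREB3L4, each lost theirs under 10 of 15, and 1 fall was called with RLE scaling, library totals, a stricter filter or lanes 5 and 7 alone and without combination replicate 2 or DMSO replicate 1 or 3. LIF, a cytokine gene, rose from between 5.45 and 6.63 CPM to between 12.6 and 14.03 CPM (1.13 ± 0.13, adjusted p 5.9e-08), 1 of 2 NF-kB targets higher among 14. The list had 1 rise in lanes 5 and 7 alone and without combination replicate 1 or 3 or DMSO replicate 2. Of 31 interferon-stimulated genes tested IRF1 rose (0.64 ± 0.14), and 2 were called lower, among them HERC6 with a call that 9 of 15 alternatives lost. No fall was called in the list with library totals or in lanes 5 and 7 alone. FTH1, the ferritin heavy chain, was the 1 NRF2 target of 20 to rise, from 478, 820 and 1141 CPM to 1648, 1686 and 1878 CPM. Its DMSO values spread widely, and pseudogenes resemble it. Exons of FTH1, THRSP, GCNT1, CEBPB, IRF1, DNAJB1, NCOA3 and LRIG1 overlap those of other counted genes, so part of their counts is uncertain.

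**Figure D3:**
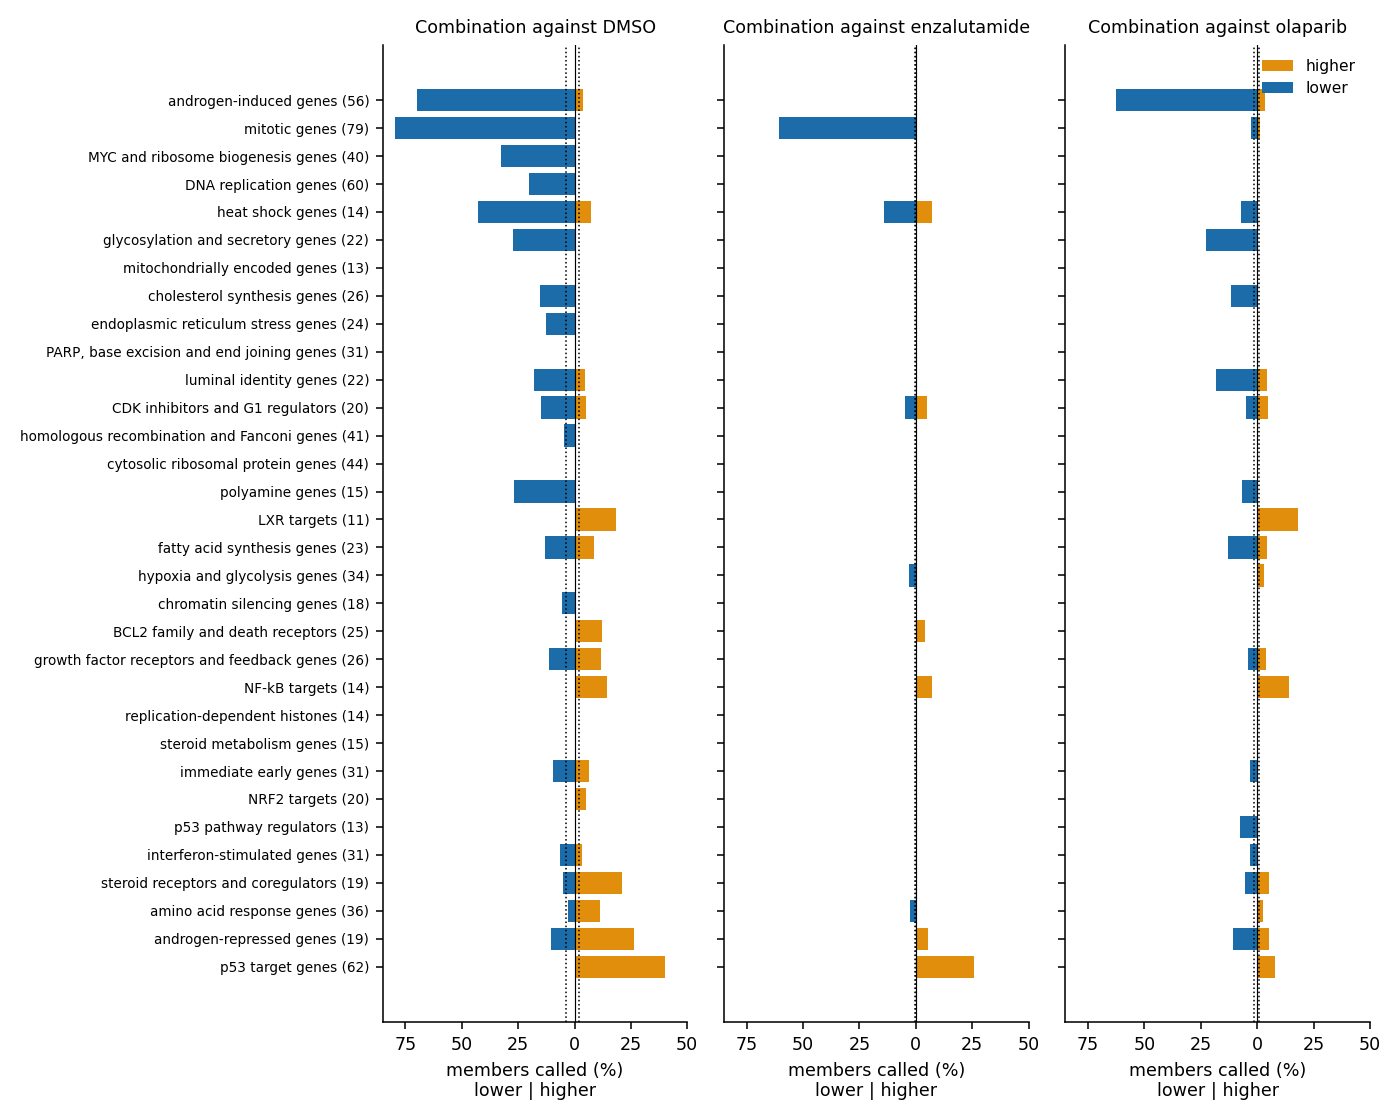
Share of the tested members of each list (number in brackets) called higher (orange, right) or lower (blue, left) for the combination against DMSO, against enzalutamide and against olaparib at 8 h, with lists of 10 or more tested genes ordered by their median against DMSO and dotted lines at the share over all genes tested. Androgen-induced genes stand out against DMSO and olaparib, mitotic genes and p53 targets against DMSO and enzalutamide.

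Among the strongest changes were many genes of low level. FAXDC2, a gene of the fatty acid hydroxylase family whose exons overlap CNOT8, stood at 1.67, 1.87 and 0.331 CPM with DMSO and at 5.99, 5.80 and 5.35 CPM with both drugs (1.97 ± 0.24, adjusted p 1.3e-07). CRLS1, the cardiolipin synthase gene, rose from 0.967, 1.27 and 0.662 CPM to 4.67, 3.35 and 4.43 CPM (1.98 ± 0.33), but its DMSO level at 24 h was 7.98 ± 1.42 CPM (SD, n = 3), so it also differs between hours without drug. PTP4A1, a phosphatase gene, rose by 1.80 ± 0.36 and shares exons with 2 unnamed genes. Its DMSO level was likewise lower at 8 h (0.961 ± 0.599 CPM) than at 24 h (2.52 ± 0.665 CPM, SD, n = 3). POU2AF3 rose by 1.19 ± 0.22 and SOX9, a developmental transcription factor, from 8.26, 8.08 and 8.78 CPM to 19.5, 19.7 and 16.6 CPM (1.18 ± 0.12, adjusted p 4.7e-09). Of the other strongest rises, FAM184B, SLC6A20, SLC30A10, RGPD5, MCIDAS, ITGB2, OPRK1 and LDLRAD1 lay below 5 CPM and each lost its call under 2 to 8 alternatives. RGPD5 also has near-identical copies. Among the falls, PKP1, the plakophilin of desmosomes, went from 1.495, 2.81 and 1.49 CPM to 0.203, 0.181 and 0 CPM. TBX15, a T-box factor gene, went from between 2.15 and 2.38 CPM to between 0.369 and 0.453 CPM, and TNS3, a focal adhesion gene, from between 1.85 and 2.98 CPM to between 0.304 and 0.923 CPM. PCSEAT, a long noncoding RNA, fell by 2.27 ± 0.44. WWTR1, LAMA1, ADH1C and KCNRG were also called lower and each lost its call under 2 to 6 alternatives.

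What olaparib added to enzalutamide was asked by setting the combination against enzalutamide alone. Few genes differed, 103 (0.654%), of which 37 were higher (0.235%) and 66 lower (0.419%), and 174 without a filter on low counts, 92 higher and 82 lower. The mitotic genes made up 48 of the 66 lower ones, with a list median of -0.41, and p53 targets 16 of the 37 higher ones, with a list median of 0.19. No androgen-induced gene was called in either direction, and that list's median was -0.02. CDKN1A stood at 491, 480 and 414 CPM with enzalutamide and thus lower in each sample than with both drugs (1.35 ± 0.06, adjusted p 2.4e-18). TP53I3 was higher with both drugs by 1.75 ± 0.19, BBC3 by 1.03 ± 0.12 and MDM2 by 0.54 ± 0.06. CDC20 stood at 121, 119 and 117 CPM with enzalutamide, above every sample with both drugs (-0.99 ± 0.06, adjusted p 2.8e-14), and PLK1 at 176, 167 and 164 CPM (-0.91 ± 0.07, adjusted p 1.3e-11). GTSE1, a G2 and S phase gene, was lower by 0.80 and PFKFB4, a glycolytic regulator that was not called against DMSO, by 0.87, a call lost when any of 5 of the 6 libraries was left out. For SLC45A3 the difference was -0.07 ± 0.08, with a 95% interval from -0.24 to 0.10, and for TMPRSS2 0.03 ± 0.06, from -0.10 to 0.16. KLK3 was not called (adjusted p 0.41), yet its interval ran from -0.46 to -0.05, and that of KLK2, also not called, from -0.47 to -0.07. The leave-one-out counts ran from 60, without combination replicate 2, to 79.

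What enzalutamide added to olaparib was asked by setting the combination against olaparib alone. Here 345 genes differed (2.19%), 120 higher (0.762%) and 225 lower (1.43%), and 300 without olaparib replicate 1. Of the androgen-induced genes 35 were lower and 2 higher, with a median of -0.60. SLC45A3 stood at 241, 249 and 244.5 CPM with olaparib, above every sample with both drugs (-2.03 ± 0.08, adjusted p 4.8e-21), and TMPRSS2 at 662, 685 and 738 CPM (adjusted p 8.3e-25). Of the mitotic genes 2 were lower, KIF20A and DEPDC1, and 1 was higher, PTTG1, which encodes securin and lies outside the fixed selection, with a list median of -0.06. CDC20 stood at 64.7, 63.9 and 64.2 CPM with olaparib alone, and the difference of -0.10 ± 0.07 had a 95% interval from -0.24 to 0.03. The p53 targets higher with both drugs than with olaparib were 5: SESN1 (0.51), SUSD6, TP53INP1, CDKN1A (0.29 ± 0.06, adjusted p 0.0033) and BTG2 (0.27 ± 0.06, adjusted p 0.0066), of which SUSD6 and TP53INP1 were named after their values were seen. SOX9 (1.18 ± 0.13), POU2AF3 (1.24), CCNO (1.53), PCED1B (1.31), MID1 (1.08) and THRSP (0.99) were the strongest rises over olaparib. CCNO lost its call without olaparib replicate 2 or 3. TBX15 was lower than with olaparib by 1.97, a call lost in lanes 5 and 7 alone and without combination replicate 1 or 2.

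The single drugs against the same DMSO samples serve as references, and share those samples with the comparison of both drugs. Enzalutamide alone changed 476 genes (3.02%), 171 higher (1.09%) and 305 lower (1.94%), and olaparib alone 208 (1.32%), 87 higher (0.553%) and 121 lower (0.769%). Of the androgen-induced genes 35 were lower and 2 higher with enzalutamide, and 1 was higher with olaparib. Of the mitotic genes 1, DEPDC1, was lower with enzalutamide and 49 were lower with olaparib.

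**Figure D4:**
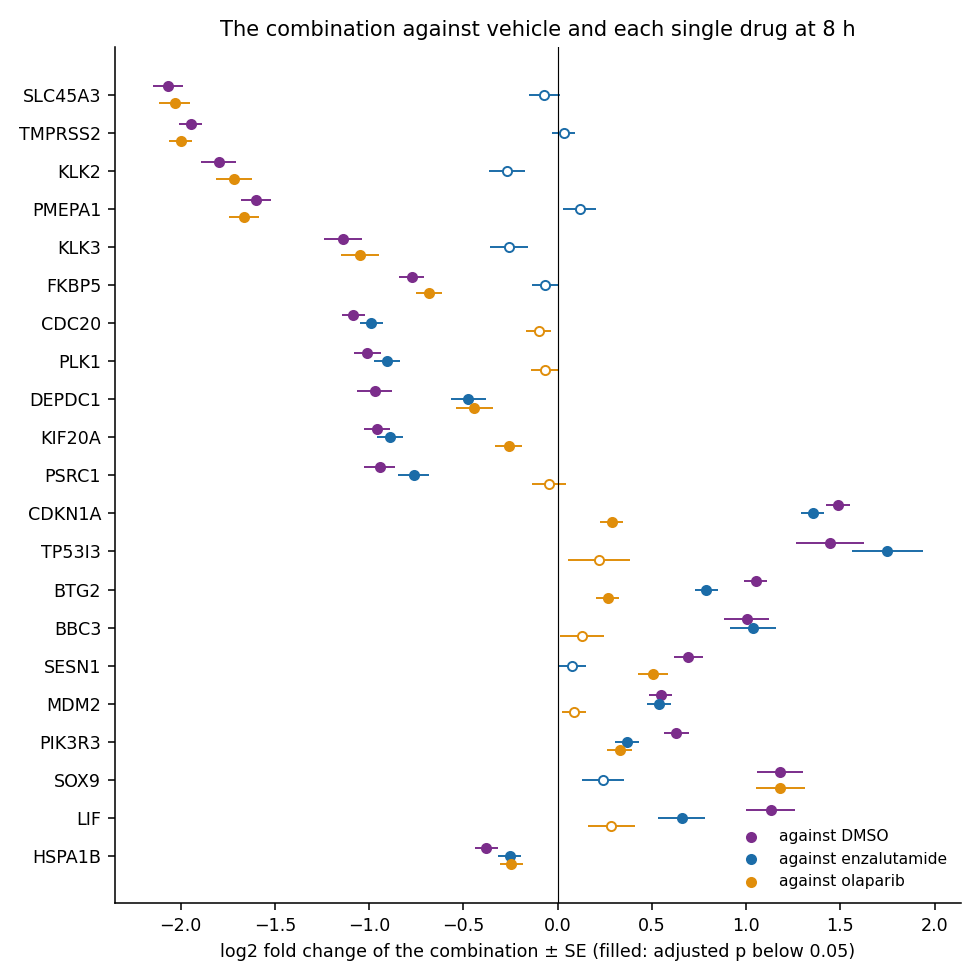
Log2 fold change of the combination with its standard error against DMSO (purple), enzalutamide (blue) and olaparib (orange) at 8 h for 21 genes, filled where the adjusted p is below 0.05. From SLC45A3 to FKBP5 the blue points are open and lie near 0 except for KLK2 (-0.27) and KLK3 (-0.26). From CDC20 to PSRC1 the orange points lie near 0 except for DEPDC1 and KIF20A, and PIK3R3, CDKN1A, BTG2 and HSPA1B are filled throughout.

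A small set of genes differed in the same direction from DMSO and from each single drug. There were 8, which rest on the same combination libraries in all 3 comparisons: CDKN1A, BTG2, TP53INP1 and PIK3R3 were higher, and HSPA1B, KIF20A, DEPDC1 and HEY1 were lower. Some passed narrowly. Against enzalutamide and olaparib the adjusted p was 0.038 and 0.023 for HSPA1B and 0.023 and 0.041 for HEY1. For KIF20A it was 0.045 against olaparib, and for TP53INP1 0.015 against enzalutamide. PIK3R3 stood at 126, 131 and 131 CPM with enzalutamide and at 126, 137 and 133 CPM with olaparib, between the DMSO and the combination values. It was higher with both drugs by 0.37 ± 0.06 than with enzalutamide (adjusted p 6.9e-04) and by 0.33 ± 0.07 than with olaparib (adjusted p 0.0012). TP53INP1, a p53-induced regulator of autophagy and cell death, had means of 164.5 ± 5.25 CPM with DMSO, 210 ± 13.02 CPM with enzalutamide, 205.5 ± 5.76 CPM with olaparib and 257 ± 8.99 CPM with both (SD, n = 3). DEPDC1 stood at 63.2, 62.2 and 60.6 CPM with DMSO, at 41.6, 49.2 and 41.98 CPM with enzalutamide, at 44.4, 39.96 and 45.4 CPM with olaparib and at 30.4, 30.8 and 34.7 CPM with both. It was lower with both by 0.47 ± 0.10 and 0.44 ± 0.10 than with either. HEY1, a Notch target, was at the limit of detection, at 0.879, 1.11 and 0.497 CPM with DMSO and at 0.101, 0 and 0 CPM with both drugs.

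Whether the joint effect departed from the sum of both single-drug effects was tested as an interaction on the log2 scale. No gene passed in edgeR or in DESeq2. In edgeR 681 of the 15744 genes tested had an unadjusted p below 0.05. Without a filter on low counts edgeR called 20, of which 18 were lower. The errors of 4 groups enter this contrast, and its median standard error over the 942 genes was 0.12, which makes a 95% interval of 0.25 to either side. For the genes the results turn on the intervals were about as narrow. They ran from -0.03 to 0.33 for CDKN1A, from -0.18 to 0.18 for BTG2, from -0.19 to 0.17 for CDC20 and from -0.27 to 0.19 for SLC45A3. TP53I3 had one from -0.05 to 1.09, and that of PIF1, from -1.16 to -0.02, left out 0 though the adjusted p did not pass. The same held for several other named genes. Among them were CEBPB (-1.02 to -0.27), FOXO3 (-0.42 to -0.11), CRLS1 (-2.21 to -0.32) and, on the other side of 0, THRSP (0.16 to 1.03). These genes and PIF1 were named for their change against DMSO. The same DMSO and combination samples enter this contrast, so their intervals are not free of that choice and show no departure.

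The combination at 24 h was compared with DMSO at 24 h, with no sample in common with the 8 h groups. At 24 h 3406 genes were called (21.6%), 1516 higher (9.63%) and 1890 lower (12%), and 768 of the 942 genes called at 8 h (81.5%) were among them, 763 with the same sign. They are 22.5% of the 24 h calls. The change of the effect itself was called for 440 genes (2.79%), 173 towards higher (1.10%) and 267 towards lower (1.70%) at 24 h. KLK3 fell further, from a log2 fold change of -1.14 at 8 h to -3.85 at 24 h (change -2.71 ± 0.15, adjusted p 8.8e-16), and so did KLK2 (-1.80 to -4.23) and SLC45A3 (-2.07 to -2.82). CDKN1A went from 1.49 to 1.98 (change 0.50 ± 0.09, adjusted p 3.8e-04). For CDC20 and PLK1 the changes of 0.08 ± 0.09 and -0.04 ± 0.10 were not called. Of the DNA replication genes 52 of 60 were lower at 24 h, with 21 changes towards lower called, and of the mitotic genes 75 of 79 with 14 such changes. The heat shock genes HSPA1B and DNAJB1, lower at 8 h, stood at -0.04 and 0.01 at 24 h, and both changes were called. HSPA5 went from -0.27 to 0.21.

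**Figure D5:**
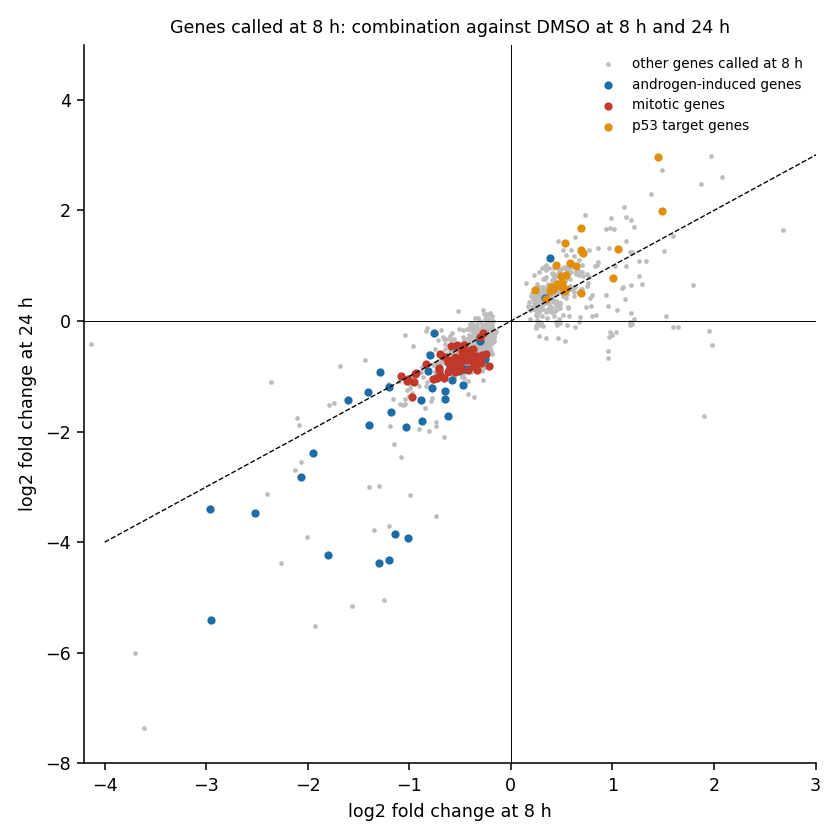
Log2 fold change of the combination against DMSO at 8 h (x axis) and at 24 h (y axis) for the genes called at 8 h, with the same 3 lists coloured and equal change as a dashed line. Most points keep their sign, several androgen-induced genes lie well below the line, and 3 genes lie outside the plotted range.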

How the data were processed

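Gene counts of 36 LNCaP libraries were used, 6 of them in the main comparison. Per the file headers the authors made the deposited counts with featureCounts v2.0.0 and the Ensembl release 99 annotation of GRCh38, from fragments of 20 to 5000 bases with both mates mapped, counting primary alignments and ignoring strand. STAR, DESeq2 and hg38 are also named in the submitters' processing notes. Reads in exons that genes share cannot be assigned, which touches the genes named with a partner. Per the labels' protocols 1 µg of RNA went into TruSeq libraries, read as pairs of 150 bases. The exon length column was not used for values.

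All 36 libraries entered 1 edgeR 4.0.16 quasi-likelihood fit (R 4.3.3) with a mean per group, TMM scaling and the filterByExpr filter, which kept 15744 of 60676 genes and 99.8% of the counts. With 24 residual degrees of freedom, the biological coefficient of variation was 6.44%. A standard error is the size of the log2 fold change divided by the square root of its F statistic, and 95% intervals use 24 degrees of freedom. On simulated counts for 15744 genes with the main comparison's design, the fit recovered 58% of 1.5-fold and 91% of 2-fold changes. The changed genes all had a mean of at least 1 CPM, and the simulated spread followed its trend with level. These rates therefore do not cover genes of lower level or of unusual spread.

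The 37 gene lists (1058 of 1060 entries matched) and the members were chosen with earlier results of these data known. Named genes are the 15 strongest rises and falls of the main comparison (adjusted p below 0.05, mean of at least 1 CPM, groups not overlapping), 6 each way in the other comparisons, up to 6 called members of a list, and fixed check genes. The text names part of these, and some genes and markers are not reported here. DESeq2 1.42.0, other scalings, filters, replicate and lane terms and left-out libraries were the alternatives. The correlation of deviations between samples with the same replicate number was -0.090, 0.086 and -0.0067, so the numbers did not pair samples.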

Additional observations from a re-analysis of the deposited data

Results flagged for a closer look

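The effect of the combination differed between 8 h and 24 h by an interaction test in edgeR for 440 genes, and 11 of those the rule picks are given here. TP53I3, the p53-induced oxidoreductase gene, rose further, by a change in log2 fold change of 1.51 ± 0.26 (from 1.44 to 2.96). KCNU1, a potassium channel gene, changed by 2.81 ± 0.54, and its DMSO level was 0.936 ± 0.300 CPM at 8 h and 0.327 ± 0.0640 CPM at 24 h (SD, n = 3). UGT2B11, a glucuronosyltransferase with close paralogs, changed by 1.43 ± 0.30, ZNF578 by 1.57 ± 0.35 and COL16A1, a collagen, by 1.5 ± 0.36. None of these 4 was called at 8 h. Lanes 5 and 7 alone lost ZNF578 and COL16A1.

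Towards lower, the sialyltransferase gene ST6GALNAC1 changed by -2.90 ± 0.27, from a combination level of 10.8 ± 0.448 CPM at 8 h to 1.24 ± 0.253 CPM at 24 h. TRPM8, a cold-sensing channel, changed by -3.12 ± 0.40, the prostaglandin dehydrogenase gene HPGD by -3.07 ± 0.65 and TRGC1, a T cell receptor gamma constant gene, by -2.79 ± 0.36. PHGR1 changed by -2.75 ± 0.45 without a call at 8 h. The fitted change of PLA2G5, a secreted phospholipase gene, was -3.79 ± 0.86. PLA2G5 and HPGD had no count in 2 of 3 combination libraries at 24 h, so the size of both fitted values is uncertain, and neither was called in lanes 5 and 7 alone.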

How the results depend on the processing

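The number of genes called for the combination against DMSO stayed within 1.5 times of 942 under the other scalings, filters, DESeq2 (790), the lane term (1023), lanes 5 and 7 alone (1104, chosen after seeing the data) and the groups compared fitted alone (646), apart from 257 that also reached 1.5-fold. With 1 library left out it ran from 595 to 912, against enzalutamide from 60 to 79, against olaparib from 249 to 300, for the change to 24 h from 298 to 404, and for the departure from additivity it was 0 throughout. Without a filter on low counts the counts against enzalutamide and for the departure were 174 and 20. With the replicate block the count against DMSO was 954, with 919 genes in common, and the block moved no count by 1.5 times. In a single lane, JUND (-0.047, lane 6), MKI67 (0.12, lane 6) and NCOA2 (-0.021, lane 5) had the sign opposite to the fit. Of 128 named genes called against DMSO, 70 were called in every alternative that gave a value and 58 lost the call in at least 1. Of those 58, 53 had an absolute log2 fold change under 0.5 or means under 5 CPM in both groups. Library totals moved the median of all genes by 0.04, and no gene called in a comparison was called in the opposite direction by a fitted alternative. Genes under 1 CPM had a median standard error of 0.50, and the 20 called among 1405 had a median absolute log2 fold change of 2.07. Changes of 2-fold and somewhat more could thus go uncalled there.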
